A study of Homo sapiens with 12 samples.

Results

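Expression of 5 melanocyte lineage genes, MITF, SOX10, PMEL, MLANA and GPNMB, was followed in Hs695T, a human melanoma cell line, under inhibitors of MAPK signalling and of histone deacetylases. The genes were chosen by symbol, and all 5 were among the 14599 genes with a named probe set, each with 1 probe set. RNA was taken 24 h after treatment in 4 groups of 3 Affymetrix arrays. DT cells received 100 nM dabrafenib, a BRAF inhibitor, with 10 nM trametinib, a MEK inhibitor. E cells received 1 µM entinostat, which blocks class I histone deacetylases. DTE cells received all 3 drugs at those doses, and DMSO cells received vehicle alone. All groups are of a single cell line and a single time point. The arrays of a group are biological replicates by their titles but technical ones by the study's design text, so p-values cover only the spread between these arrays.

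SOX10 is a neural crest transcription factor that activates MITF, and MITF in turn activates the pigmentation genes of melanocytes. PMEL builds the fibrils on which melanin is laid down, MLANA is a melanosomal membrane protein that binds PMEL, and GPNMB is a transmembrane glycoprotein of melanosomes and lysosomes. MITF and its relatives TFEB, TFE3 and TFEC bind E-boxes, of which CATGTG is a form found in pigmentation gene promoters, and RAF-MEK-ERK signalling is known to phosphorylate MITF. In melanoma the program marks the differentiated state, and its products serve as diagnostic antigens.

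Promoter sequences from RefSeq (GRCh38.p14, 250 bases before to 50 bases after an annotated start) were matched to 3 of the 5 members: GPNMB, MLANA and MITF, which has 3 annotated starts. Shown here are GPNMB (chr7:23246525-23246824, plus strand), which moved most, and MLANA (chr9:5890639-5890938, plus strand), which moved little. TYR (chr11:89177625-89177924, plus strand) and TYRP1 (chr9:12693135-12693434, plus strand), the pigment enzymes tyrosinase and tyrosinase-related protein 1, are shown as pigmentation genes to set beside them. Capitals mark CATGTG or its reverse complement CACATG, and a match to TGANTCA, the form bound by AP-1 factors.
GPNMB: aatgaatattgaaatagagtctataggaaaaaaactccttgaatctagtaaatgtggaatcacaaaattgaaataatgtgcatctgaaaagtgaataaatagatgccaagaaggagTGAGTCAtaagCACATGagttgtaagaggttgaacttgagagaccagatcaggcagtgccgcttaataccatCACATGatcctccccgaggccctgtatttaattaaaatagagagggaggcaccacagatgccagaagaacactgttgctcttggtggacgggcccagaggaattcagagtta
MLANA: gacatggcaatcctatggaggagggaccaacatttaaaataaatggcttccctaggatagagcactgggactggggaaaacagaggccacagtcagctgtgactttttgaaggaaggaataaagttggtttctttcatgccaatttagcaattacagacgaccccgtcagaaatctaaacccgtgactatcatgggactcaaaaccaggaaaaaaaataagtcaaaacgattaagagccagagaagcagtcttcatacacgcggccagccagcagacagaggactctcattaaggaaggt
TYR: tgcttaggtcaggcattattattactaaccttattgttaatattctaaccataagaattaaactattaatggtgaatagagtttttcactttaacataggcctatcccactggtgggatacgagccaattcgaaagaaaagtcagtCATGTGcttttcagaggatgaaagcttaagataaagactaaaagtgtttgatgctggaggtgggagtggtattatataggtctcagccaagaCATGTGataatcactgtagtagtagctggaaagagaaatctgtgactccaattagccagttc
TYRP1: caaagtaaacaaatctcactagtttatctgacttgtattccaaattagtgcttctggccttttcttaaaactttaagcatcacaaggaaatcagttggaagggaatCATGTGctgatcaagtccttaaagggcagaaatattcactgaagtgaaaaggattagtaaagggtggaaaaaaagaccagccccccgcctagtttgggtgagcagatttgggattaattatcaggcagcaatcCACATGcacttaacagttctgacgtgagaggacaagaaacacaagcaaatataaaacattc
The GPNMB window holds 2 CATGTG matches, both as CACATG, beginning 123 and 62 bases before the start, and 1 TGANTCA match beginning 134 bases before it. TYR holds 2 CATGTG matches, 104 and 12 bases before the start, and TYRP1 holds 2, at 144 and 11 bases. MLANA holds 0 matches to any motif searched (the E-boxes CATGTG and CACGTG, the SOX motifs ACAAAG and ACAATG, and the AP-1 motif TGANTCA, on both strands), and no matches overlapped in the windows shown. Among MITF's windows, the first has 1 ACAATG match, the second has 1 ACAAAG match as CTTTGT, and the third, that of the melanocyte form, has none. Over 35116 promoter windows of the same length, 11.1% hold CATGTG, 7.26% CACGTG, 16.1% ACAAAG, 10.8% ACAATG and 7.71% TGANTCA. As described below, GPNMB changed severalfold while TYR and TYRP1, with as many CATGTG matches, passed in no comparison. The TYR and TYRP1 probe sets are dim and may not report transcript above background. Whether the matches bear on expression was not tested.

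Most probe sets were dimmer in DT and DTE cells, and this shift touches every value that follows. Array medians averaged 39.3 ± 1.68 in DT, 49.7 ± 1.68 in E, 36.0 ± 3.46 in DTE and 53.3 ± 3.77 in DMSO (intensity units, SD, n = 3 each). The median log2 difference from DMSO over all genes was -0.48 for DT, -0.20 for E and -0.72 for DTE. Differences are therefore given as log2 of the deposited intensity ± the limma standard error, followed by the difference after quantile normalization, which makes the arrays' distributions equal. A gene rose or fell where its limma p, adjusted by Benjamini-Hochberg over all 14599 genes, was under 0.05 on the deposited scale. RNA came from whole cultures, in which fewer cells of a kind and less RNA per cell cannot be told apart. Intensities of different probe sets were not compared, since probes differ in brightness. The files carry no detection call, so whether the dim probe sets (MLANA, TYR and TYRP1) report transcript above background is not known. Of markers of other cell types, 5 of 6 keratinocyte genes were measured (summed intensity 94.4 to 148), as were 2 of 6 fibroblast genes (11.5 to 14.2), 2 of 5 leukocyte genes (40.1 to 68.1) and 2 of 4 endothelial genes. The endothelial sum was 690 to 725 in E, 69.5 to 88.9 in DT and 126 to 150 in DTE, against 402 to 462 in DMSO. It rests on VWF and KDR alone. The lower of the 2 gene means was 22.8 to 33.8 over the groups. The higher was 674 in E, 51.3 in DT, 114 in DTE and 389 in DMSO, so the sum mainly followed a single gene. Its part in the results was not tested.

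**Figure D1:**
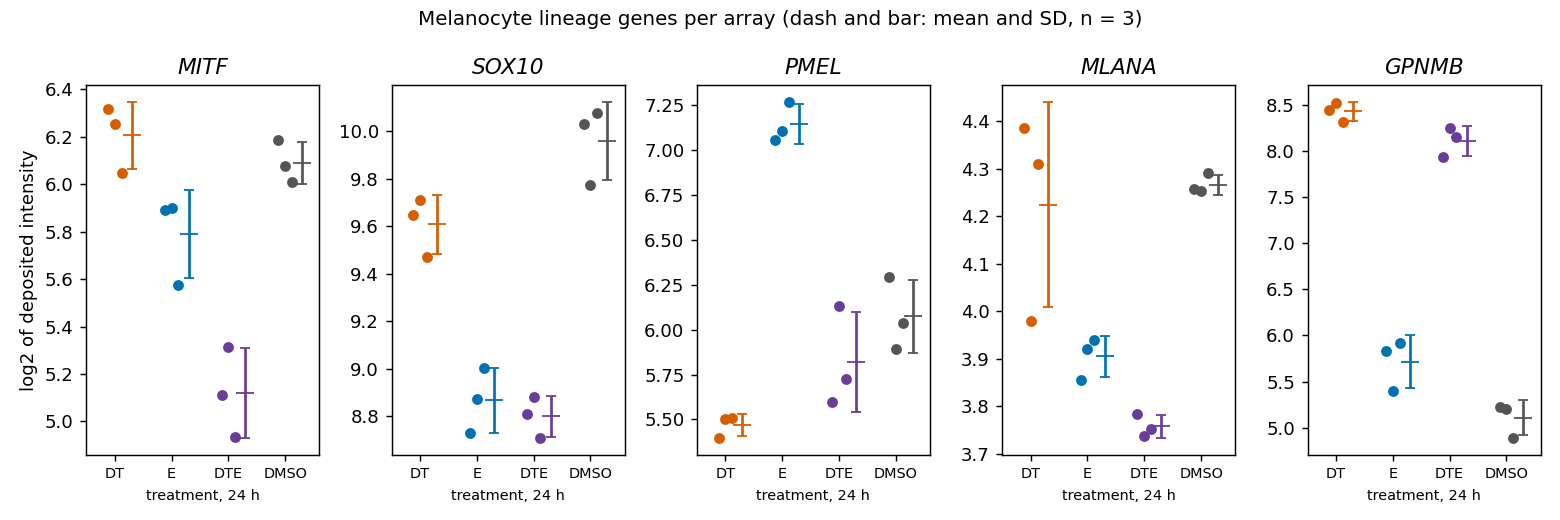
Log2 of the deposited intensity (vertical axis, own range per gene) of each member on each of the 12 arrays, by treatment, with the group mean and SD (n = 3) beside the points. GPNMB was high in all DT and DTE arrays, PMEL stood highest in E, and SOX10 was low in E and DTE.

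Entinostat lowered SOX10 on both scales, with or without the MAPK inhibitors. On the deposited scale SOX10 was also lower in DT than in DMSO, but after quantile normalization it was higher in DT. Its intensities were 802, 838 and 709 in DT, 425, 469 and 513 in E, 449, 471 and 419 in DTE, and 1045, 874 and 1081 in DMSO. Each drug group lay wholly below DMSO, and E and DTE overlapped each other. SOX10 fell 2.13-fold in E (-1.09 ± 0.12, adjusted p = 1.3e-06, quantile -0.74), where genes of the brightest decile, to which it belongs, had a median of -0.37. In DTE it fell 2.23-fold against DMSO (-1.16 ± 0.12, adjusted p = 1.2e-07), but its decile fell by 1.19 and the quantile difference was 0.04 (adjusted p = 0.73). After subtraction of array medians SOX10 was still lower in DTE (-0.36, adjusted p = 0.0032), so this result depended on the scaling used. The fall in DT (-0.35 ± 0.12, adjusted p = 0.014) became a rise after quantile normalization (0.41, adjusted p = 0.0015), its decile having fallen by 0.74. That call was lost without DT replicate 3 (adjusted p = 0.063) or without DMSO replicate 3 (adjusted p = 0.06).

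Adding entinostat to the MAPK inhibitors lowered SOX10 on both scales (DTE minus DT -0.81 ± 0.12, adjusted p = 2.4e-05, quantile -0.37). Adding the MAPK inhibitors to entinostat gave -0.07 ± 0.12 (95% interval -0.31 to 0.18, adjusted p = 0.6) on the deposited scale, whereas after quantile normalization SOX10 was higher in DTE than in E (0.77, adjusted p = 2.1e-05). Compared directly, DT exceeded E by 0.74 ± 0.12 (adjusted p = 5.9e-05, quantile 1.14). On the deposited scale the order of SOX10 levels was DMSO, DT, E and DTE, with E and DTE not told apart. After quantile normalization the log2 means were 9.78 in DT, 8.64 in E, 9.41 in DTE and 9.38 in DMSO, so that DT was highest and E lowest, and DTE and DMSO were not told apart.

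On the deposited scale MITF passed in neither DT nor E and was lowest in DTE. Its intensities were 79.8, 76.3 and 66.2 in DT, 59.4, 59.7 and 47.7 in E, 34.5, 39.8 and 30.6 in DTE, and 72.7, 67.4 and 64.5 in DMSO. DT overlapped DMSO, E lay just below DMSO on every array, and all DTE arrays lay below all others. In DTE, MITF fell 1.96-fold against DMSO (-0.97 ± 0.13, adjusted p = 2.7e-06, quantile -0.34 with adjusted p = 0.0079). Genes of the same decile by brightness fell by 0.72 there, and after subtraction of array medians the difference was -0.17 and did not pass (adjusted p = 0.13). DT did not pass on the deposited scale (0.12 ± 0.13, 95% interval -0.15 to 0.38, adjusted p = 0.42), while the quantile difference was 0.61 (adjusted p = 0.00021) and the decile's median -0.50. E did not pass (-0.30 ± 0.13, adjusted p = 0.06, quantile -0.15 with adjusted p = 0.21), although 43.2% of all genes had E arrays wholly below DMSO arrays.

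MITF was lower in the combination than under the MAPK inhibitors alone on both scales. With entinostat added, MITF was 2.12-fold lower (DTE minus DT -1.09 ± 0.13, adjusted p = 3.1e-06, quantile -0.95), against a median of -0.22 in its decile. The effect of entinostat thus differed with and without DT, by -0.79 ± 0.18 (interaction, adjusted p = 0.01, quantile -0.80 with adjusted p = 0.0015), and this passed with each array left out in turn (adjusted p 0.0052 to 0.034). Against E, DTE was lower (-0.67 ± 0.13, adjusted p = 0.0002) but did not pass after quantile normalization (-0.19, adjusted p = 0.17). DT exceeded E by 0.42 ± 0.13 (adjusted p = 0.012, quantile 0.76), a call lost on the deposited scale without DT replicate 1 (adjusted p = 0.052) or E replicate 3 (adjusted p = 0.076).

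**Figure D2:**
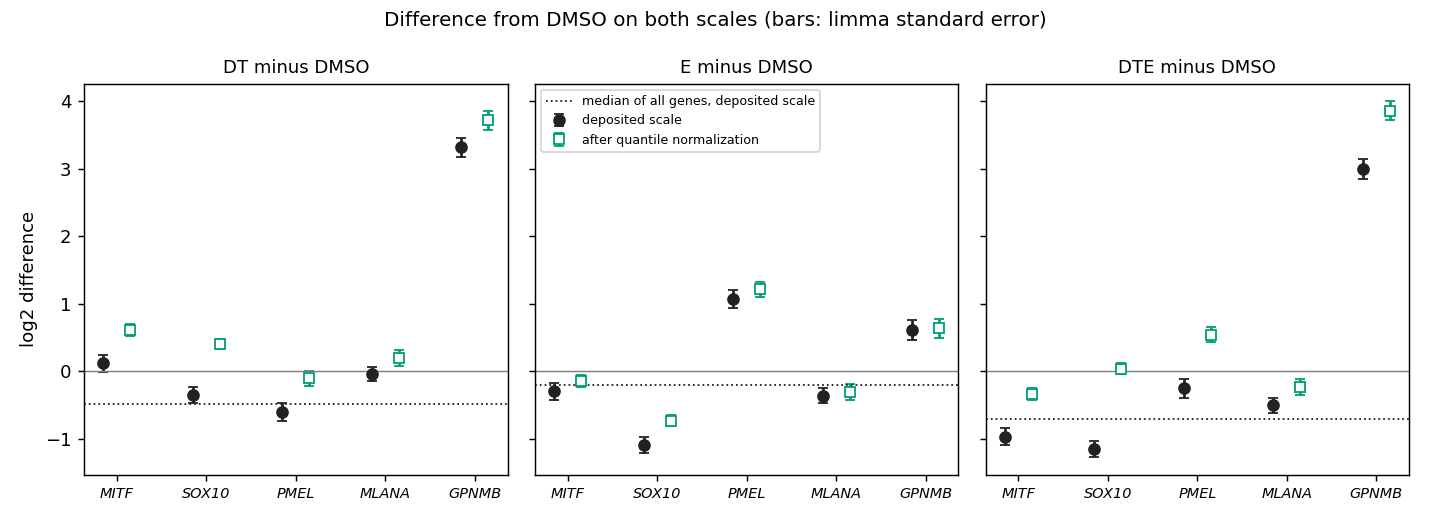
Log2 difference from DMSO (vertical axis) of each member for DT, E and DTE, on the deposited scale (filled) and after quantile normalization (open), with limma standard errors and the median of all genes on the deposited scale (dotted). GPNMB in DT and DTE and PMEL in E were higher on both scales, while SOX10 in DT was lower on the deposited scale and higher after quantile normalization.

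PMEL and SOX10 moved in opposite directions under entinostat. PMEL intensities were 42.2, 45.4 and 45.5 in DT, 133, 138 and 154 in E, 48.5, 70.05 and 52.9 in DTE, and 78.5, 59.4 and 65.6 in DMSO. E arrays lay above all others, DT arrays below all others, and DTE overlapped DMSO through its second replicate. PMEL rose 2.10-fold in E (1.07 ± 0.14, adjusted p = 9.2e-06, quantile 1.22), while its decile had a median of -0.34. It fell 1.52-fold in DT (-0.60 ± 0.14, adjusted p = 0.0011), close to the median of its decile (-0.59), and the quantile difference was -0.11 (adjusted p = 0.55). Entinostat and the MAPK inhibitors differed most for this gene after GPNMB, with DT 3.19-fold below E (-1.67 ± 0.14, adjusted p = 4.9e-08, quantile -1.32).

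In the combination PMEL stood between the single treatments. DTE was 2.51-fold below E (-1.33 ± 0.14, adjusted p = 6.2e-07, quantile -0.67) and 1.27-fold above DT (0.35 ± 0.14, adjusted p = 0.047, quantile 0.65 with adjusted p = 0.00046). The call against DT on the deposited scale was lost when any of 9 of the 12 arrays was left out, with differences of 0.19 to 0.46 and adjusted p of 0.019 to 0.22. Against DMSO, DTE did not pass (-0.26 ± 0.14, adjusted p = 0.1), yet the quantile difference was 0.54 (adjusted p = 0.0015), of opposite sign. Without DTE replicate 2 it passed as lower (-0.41, adjusted p = 0.0081), as it did without DMSO replicate 2 (-0.35, adjusted p = 0.047). The rise with entinostat was smaller in the presence of DT by 0.72 on the log2 scale (interaction -0.72 ± 0.20, adjusted p = 0.03, quantile -0.57). That call was lost when any of 8 of the 12 arrays was left out (adjusted p 0.0047 to 0.083).

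MLANA was dim, and its differences were small. Its intensities were 20.9, 15.8 and 19.8 in DT, 14.5, 15.1 and 15.3 in E, 13.8, 13.3 and 13.5 in DTE, and 19.1, 19.1 and 19.6 in DMSO. E and DTE arrays lay below DMSO without overlap, while DT spread to either side of DMSO. MLANA fell 1.28-fold in E (-0.36 ± 0.11, adjusted p = 0.011) and 1.42-fold in DTE (-0.51 ± 0.11, adjusted p = 0.00046), against medians of -0.06 and -0.31 in its decile. Neither passed after quantile normalization (E -0.31, adjusted p = 0.053; DTE -0.24, adjusted p = 0.12), and after subtraction of array medians DTE was 0.29 higher (adjusted p = 0.033). With entinostat added to DT it was lower on both scales (DTE minus DT -0.47 ± 0.11, adjusted p = 0.0019, quantile -0.43 with adjusted p = 0.01). DT against DMSO (-0.04 ± 0.11, 95% interval -0.27 to 0.19) and DTE against E (-0.15 ± 0.11, 95% interval -0.38 to 0.08) did not pass. DT exceeded E by 0.32 ± 0.11 (adjusted p = 0.024, quantile 0.50), a call lost when any of 4 arrays was left out (DT replicates 1 and 3, E replicates 1 and 2, adjusted p 0.053 to 0.11).

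Against DMSO, GPNMB rose 8.0-fold to 9.98-fold in the 2 groups given the MAPK inhibitors, and slightly with entinostat alone. Its intensities were 349, 367 and 318 in DT, 57.1, 42.1 and 60.6 in E, 243, 303 and 284 in DTE, and 37.4, 36.9 and 29.7 in DMSO. Every drug-treated array exceeded every DMSO array, and all DT and DTE arrays exceeded all E arrays. GPNMB rose 9.98-fold in DT (3.32 ± 0.14, adjusted p = 3.6e-11, quantile 3.72) and 8.0-fold in DTE (3.00 ± 0.14, adjusted p = 4.1e-11, quantile 3.86), while its decile fell by 0.67 and 1.14. It ranked 2 of 14599 genes by difference in each of these comparisons and 1 in DTE against E (2.39 ± 0.14, 5.24-fold, adjusted p = 4.5e-09, quantile 3.23). The rise in E was 1.53-fold (0.61 ± 0.14, adjusted p = 0.0021, quantile 0.64).

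GPNMB was not higher in DTE than in DT on the deposited scale. DTE minus DT was -0.32 ± 0.14 and did not pass (95% interval -0.62 to -0.02, adjusted p = 0.077, quantile 0.14 with adjusted p = 0.45). The interaction was -0.93 ± 0.20 (adjusted p = 0.0079), but after quantile normalization it was -0.49 and did not pass (adjusted p = 0.13). DT exceeded E by 2.71 ± 0.14 (6.54-fold, adjusted p = 3.1e-10, quantile 3.08).

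**Figure D3:**
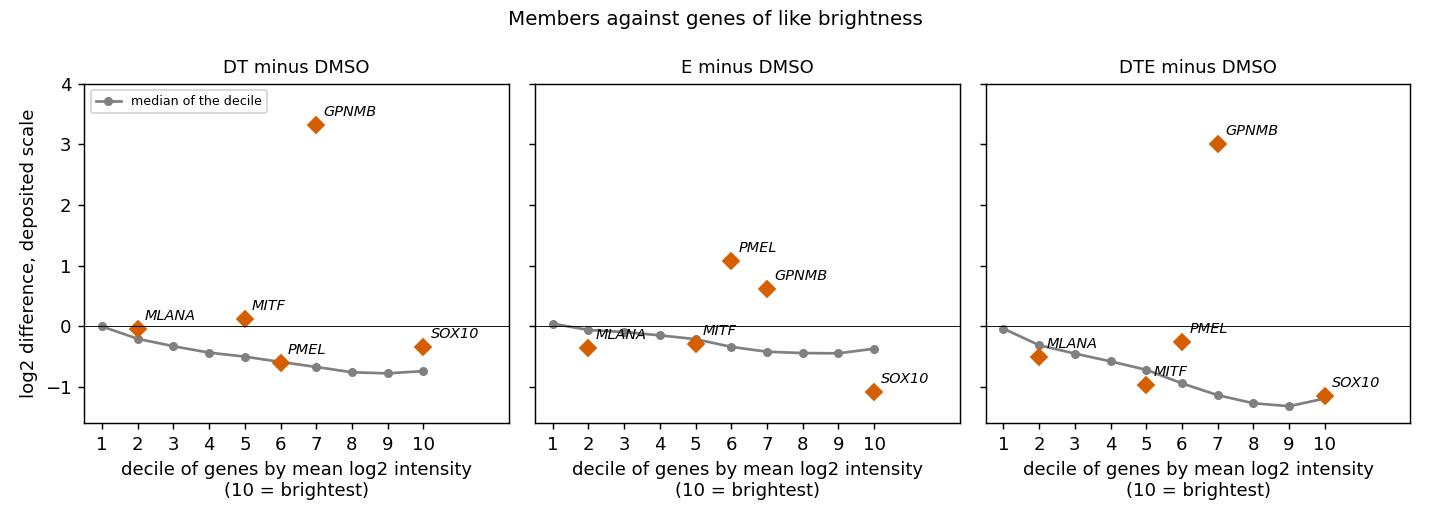
Log2 difference from DMSO on the deposited scale (vertical axis) against the decile of genes by mean log2 intensity (horizontal axis, 10 the brightest), with the median of each decile as a grey line and members as diamonds. Bright genes fell more than dim ones in DT and DTE, PMEL in DT and SOX10 in DTE lay on the line, and GPNMB stood 3.32 above 0 in DT and 3.00 above 0 in DTE.

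The members' calls are set here against the share of all genes that passed. In DT against DMSO 3 of 5 passed, against 69.1% of all genes, with 1 higher (2.97% of genes) and 2 lower (66.2%). In E 4 of 5 passed, against 47.5%, with 2 higher (10.4%) and 2 lower (37.2%). In DTE 4 of 5 passed, against 78.6%, with 1 higher (4.38%) and 3 lower (74.3%). Between DTE and DT 4 of 5 passed (49.3% of genes), with PMEL higher (8.68%) and MITF, SOX10 and MLANA lower (40.6%), and the same calls held after quantile normalization. Between DTE and E 3 passed (73.3%), with GPNMB higher (0.644%) and MITF and PMEL lower (72.6%). Between DT and E all 5 passed on both scales (46.7% on the deposited scale), with PMEL lower (39.4%) and MITF, SOX10, MLANA and GPNMB higher (7.25%). The interaction passed for MITF, PMEL and GPNMB, all negative, against 8% of all genes, with 4.84% negative and 3.16% positive. The comparisons with DMSO share its 3 arrays and are not independent of each other.

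After quantile normalization the members' calls shifted toward higher, as those of all genes did. In DT MITF, SOX10 and GPNMB were higher and 0 members lower, against 29% of genes passing (15.1% higher, 13.9% lower). In E PMEL and GPNMB were higher and SOX10 lower, against 39.6% (18.5% higher, 21.1% lower). In DTE PMEL and GPNMB were higher and MITF lower, against 46.3% (22.1% higher, 24.2% lower). DTE against E gave SOX10 and GPNMB higher and PMEL lower, against 23% (11.4% higher, 11.6% lower). For DTE against DT 43.3% of genes passed (19.9% higher, 23.5% lower), and for DT against E 45% (24.6% higher, 20.4% lower). The interaction was negative for MITF and PMEL and positive for SOX10, against 12.5% (6.21% positive, 6.26% negative).

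Arrays that did not overlap were common among all genes on the deposited scale, and the separations described for the members are to be read against these shares. The drug-treated arrays lay wholly above DMSO for 3.34% of genes in DT, 12.2% in E and 4.42% in DTE, and wholly below for 67.8% in DT, 43.2% in E and 72.4% in DTE. DTE lay wholly above DT for 9.99% and below for 44%, and wholly above E for 0.938% and below for 70.9%. DT lay wholly above E for 9.73% of genes and below for 47.5%.

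No 2 members had the same profile. Likeness was measured as the root-mean-square difference over the 12 arrays of log2 values, each gene set to its DMSO mean, on the deposited scale unless stated. MITF and MLANA were the closest pair of members at 0.30, and SOX10 lay 0.49 from MITF and 0.53 from MLANA. PMEL lay 0.80 to 1.19 from these 3, and GPNMB 2.49 to 2.91 from all other members. Within 0.5 lay 7409 genes for MITF, 4695 for SOX10 and 8545 for MLANA, and after quantile normalization 9379, 8087 and 10997. Nearest were MGC12916, KDM4C and RPS27L to MITF (0.10 to 0.13), ATF6B, HFE and CREBBP to SOX10 (0.11 to 0.13), and DAZ3, CNR1 and RENBP to MLANA (0.12 to 0.13). PMEL was nearest to EPB41L5, LTA4H and CACHD1 (0.15 to 0.18), with 1189 genes within 0.5. GPNMB had no gene within 0.5, and its nearest were FYB1 (0.67), PRELP (0.91) and STK32A (0.92). After quantile normalization MITF and MLANA lay 0.29 apart, SOX10 and MLANA 0.31, and SOX10 and MITF 0.39. Of the nearest genes, MGC12916 for MITF, ATF6B for SOX10, and FYB1 and PRELP for GPNMB were again among the nearest 3, and none of those of PMEL or MLANA was.

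The wider lineage was followed in 8 partly overlapping lists holding 100 genes, of which 61 besides the members were measured. In DT 2 of the 61 rose and 43 fell (median -0.52, all genes -0.48), and after quantile normalization 15 were higher and 13 lower. In E 7 rose and 22 fell (median -0.10, all genes -0.20, quantile 19 higher and 16 lower). In DTE 4 rose and 46 fell (median -0.74, all genes -0.72, quantile 24 higher and 16 lower). Adding entinostat to DT raised 10 and lowered 22 (median -0.19, all genes -0.23, quantile 23 higher and 12 lower). On the deposited scale the medians of the 61 genes lay within 0.1 of those of all genes in these 4 comparisons. After quantile normalization they were 0.04 in DT, 0.01 in E, 0.13 in DTE and 0.11 in DTE minus DT, against 0.01, -0.04, -0.03 and -0.03 for all genes. Some single lists lay further off, and medians are given for several of them.

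Of 12 further lineage transcription factors, 2 rose and 5 fell in DT, 1 rose and 4 fell in E, and 2 rose and 8 fell in DTE. Over all genes 66.2% fell in DT, 37.2% in E and 74.3% in DTE. After quantile normalization 3 factors were higher and 1 lower in DT, 2 higher and 3 lower in E, and 4 higher and 1 lower in DTE. FOXD3, a transcription factor of early neural crest, had log2 intensities of 6.82 ± 0.07 in DT, 4.84 ± 0.08 in E, 4.75 ± 0.46 in DTE and 5.12 ± 0.15 in DMSO (SD, n = 3 each). It rose in DT (1.69 ± 0.17, quantile 2.07) and was lower in DTE than in DT (-2.07 ± 0.17, quantile -1.99), with an interaction of -1.78 ± 0.24 (quantile -1.76). PAX3, which acts with SOX10 on MITF, also had a negative interaction (-0.77 ± 0.17, quantile -0.69). It fell in DT (-0.78 ± 0.12, quantile 0.04 and not passing) and in DTE (-1.31 ± 0.12, quantile -0.01 and not passing). ZEB2 (-1.30 ± 0.10, quantile -0.93) and SOX5 (-1.06 ± 0.12, quantile -0.61) fell with SOX10 in E, whereas SOX9, a SOXE relative of SOX10, rose (1.17 ± 0.13, quantile 1.49). LEF1, a WNT effector, fell in DT (-2.19 ± 0.10, quantile -1.41) and in DTE (-2.40 ± 0.10, quantile -1.34). Interactions were positive for LEF1 (0.67, adjusted p = 0.0084) and IRF4 (0.63, adjusted p = 0.034), so 2 of the 12 factors passed in each direction. Of all 61 list genes, 6 had a positive and 2 a negative interaction (quantile 11 and 4). Over all genes 3.16% were positive and 4.84% negative.

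MITF's relatives did not rise on the deposited scale. TFE3 fell in DT (-0.85 ± 0.11, quantile -0.06 and not passing) and in DTE (-0.91 ± 0.11, but 0.36 higher and passing after quantile normalization). TFEB gave -0.26 ± 0.12 in DT and did not pass, and TFEC gave -0.14 in DT and 0.05 in E, neither passing. Both fell in DTE on the deposited scale. Their log2 means there were 4.78 for TFEB and 2.88 for the dim TFEC, against 5.36 and 3.11 in DMSO. After quantile normalization 1 of the 12 further lineage factors was lower in DTE. Of 11 lysosomal targets of this family 0 rose and 9 fell in DT (median -0.51, all genes -0.48), but 6 were higher and 0 lower after quantile normalization (median 0.30, all genes 0.01). In DTE 0 rose and 10 fell, against 8 higher and 1 lower after quantile normalization (median 0.53, all genes -0.03). MCOLN1, a lysosomal calcium channel, fell in DTE on both scales (-1.62 ± 0.10, quantile -0.36).

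The pigment enzymes passed in no comparison. TYR, with log2 intensities of 3.58 ± 0.12 in DT, 3.62 ± 0.17 in E, 3.61 ± 0.19 in DTE and 3.81 ± 0.26 in DMSO, passed in 0 of 7 comparisons on either scale, as did TYRP1 (3.31 ± 0.25, 3.44 ± 0.29, 3.33 ± 0.35 and 3.48 ± 0.28 in the same order). DCT, the remaining enzyme of the list, was not analysed here. Of 4 other melanosome cargo genes 3 fell in DT and 3 in DTE, where 66.2% and 74.3% of all genes fell. After quantile normalization 0 were lower in either group and 2 were higher in DTE. In E, QPCT rose (0.64 ± 0.11, quantile 0.80) and TPCN2, an endolysosomal channel, fell (-0.69 ± 0.11, quantile -0.38). All 13 measured melanosome biogenesis and transport genes fell in DTE (median -0.91), where 74.3% of all genes fell (median -0.72), and after quantile normalization 5 were higher and 7 lower (median -0.30, all genes -0.03). HPS5, a subunit of the BLOC-2 trafficking complex, fell there (-2.74 ± 0.11, quantile -1.51), as did VPS33A, of the vacuolar sorting machinery (-2.04 ± 0.11, quantile -0.88).

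Of 8 receptors and ligands of melanocytes, 2 rose and 2 fell in E, and 1 rose and 3 fell in DTE. Over all genes 10.4% rose and 37.2% fell in E, and 4.38% rose and 74.3% fell in DTE. After quantile normalization 2 receptors and ligands were higher and 2 lower in each. Their medians were 0.11 in E and -0.16 in DTE, against -0.20 and -0.72 for all genes. After quantile normalization they were 0.11 and 0.13, against -0.04 and -0.03. In DT 0 rose and 4 fell, where 66.2% of all genes fell (quantile 2 higher and 1 lower). KITLG, the ligand of KIT, rose in E (2.09 ± 0.11, quantile 2.05) and in DTE (1.71 ± 0.11, quantile 2.38), while KIT did not pass in either. ERBB3, a neuregulin receptor and SOX10 target, fell in E (-2.34 ± 0.11, quantile -1.95) and in DTE (-2.60 ± 0.11, quantile -1.34), as SOX10 did on the deposited scale. EDNRB, the endothelin receptor of melanoblasts, rose in E (1.07 ± 0.12, quantile 1.19) and fell in DT (-0.90 ± 0.12, quantile -0.44), as PMEL did on the deposited scale. MC1R, the melanocortin receptor, fell in E (-0.84 ± 0.17, quantile -0.54) and in DTE (-1.37 ± 0.17, quantile -0.45).

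Of 9 further MITF targets 8 fell in DT and 0 rose (median -1.49, all genes -0.48, quantile 5 lower and 0 higher, median -0.70). Over all genes 66.2% fell there. MITF itself did not pass in DT on the deposited scale and was 0.61 higher after quantile normalization (adjusted p = 0.00021). BCL2, a survival gene (-2.45 ± 0.15, quantile -1.80), ADGRG1, an adhesion receptor (-2.00 ± 0.11, quantile -1.26), and CDK2, a cell cycle kinase (-1.96 ± 0.11, quantile -1.16), were among the targets that fell. In E 1 of the 9 rose and 2 fell, where 10.4% of all genes rose and 37.2% fell. After quantile normalization 4 were higher and 1 lower. The rise on the deposited scale was that of the receptor gene MET (1.86 ± 0.10, quantile 2.08). In DTE 1 rose and 7 fell (median -0.999, all genes -0.72), whereas after quantile normalization 3 were higher and 3 lower (median 0.13, all genes -0.03). Of 5 SOX10 targets and glial crest genes all fell in DT (median -1.61, all genes -0.48, quantile 4 lower and 1 higher, ERBB3) and all fell in DTE (median -1.61, all genes -0.72, quantile 4 lower and 1 higher, NGFR). NES, which encodes the intermediate filament nestin, fell in DT (-2.05 ± 0.10, quantile -1.32), in E (-0.98 ± 0.10, quantile -0.63) and in DTE (-2.67 ± 0.10, quantile -1.47). S100B, a calcium-binding melanoma marker, fell in DT (-1.61 ± 0.10, quantile -0.96) and in DTE (-1.61 ± 0.10, quantile -0.63). In E 1 of these 5 genes rose and 4 fell, on either scale. The gene that rose was NGFR (0.79, adjusted p = 1.1e-05), which fell in DT (-1.98). NGFR was also higher in DTE than in DT (1.48, adjusted p = 2.8e-08), with a positive interaction (0.69, adjusted p = 0.0069).

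**Figure D4:**
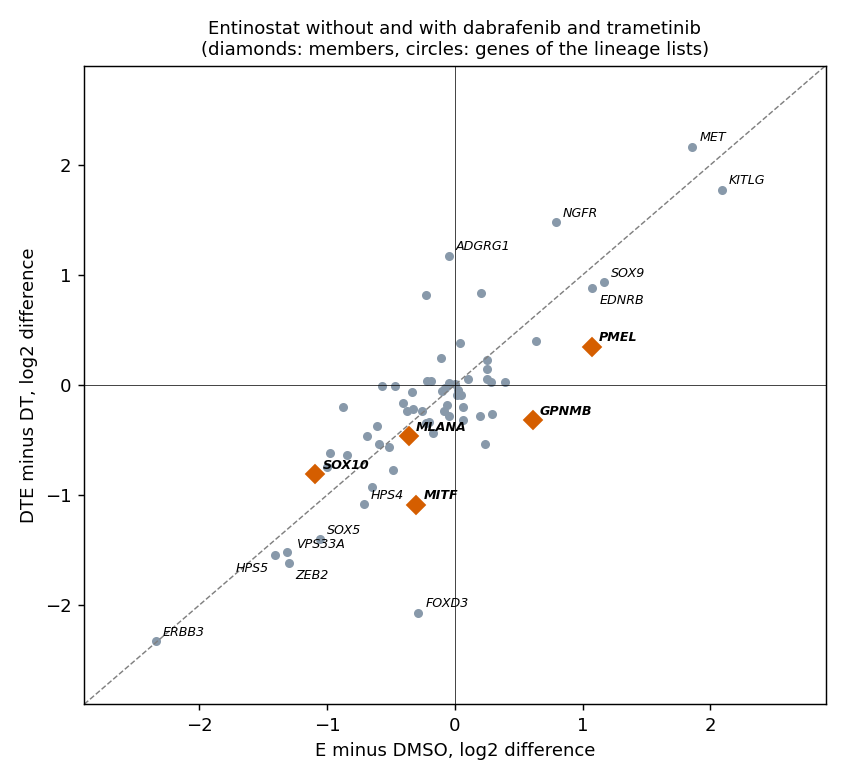
Log2 effect of entinostat without the MAPK inhibitors (E minus DMSO, horizontal axis) and with them (DTE minus DT, vertical axis) on the deposited scale, for the 5 members (diamonds) and 61 lineage list genes (circles), with the line of equal effects. MITF, PMEL, GPNMB and FOXD3 lay below the line, ADGRG1 above it, and ERBB3 on it.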

How the data were processed

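The deposited table holds 1 linear intensity per probe set for each of 12 arrays, which the authors deposited. The submitters' processing notes name RMA and Transcriptome Analysis Console. No version or build was found in the labels or headers, and no scaling between arrays was described beyond the name RMA. RMA normally includes such scaling, yet array medians of the deposited values averaged 36.0 in DTE and 53.3 in DMSO. Why they differ is not known. Of 29592 rows, 14783 had 1 gene symbol, 0 had several and 14809 had none here. Symbols were updated through gene IDs with RefSeq (GRCh38.p14, names only), giving 14599 genes, and for the 169 with several rows the brightest was used. The log2 of the deposited values was fitted with limma 3.58.1 in R 4.3.3 over the 12 arrays, 1 coefficient per group (8 residual and 7.68 prior degrees of freedom), with 7 comparisons and p-values adjusted by Benjamini-Hochberg over all genes. Having 3 arrays per group limits precision. Deciles are of genes ranked by mean log2 intensity over all arrays.

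The members and lists were chosen with earlier results of these data known. Named list genes were TYR, TYRP1, DCT, PAX3, TFE3, TFEB, TFEC, EDNRB and, per list and comparison, up to 4 passing and 2 non-passing genes of largest change. Alternatives were quantile normalization, median subtraction, a filter on the dimmest 40% of genes, trend and robust variance, other handling of probe sets, a pseudocount of 16, only the arrays compared, the replicate number as a block, and leaving out each array. On simulated data for DT against DMSO (14599 genes), 40% of genes with a simulated log2 change of 0.5 passed, as did 100% at 1, 2 or 4 and 7 unchanged genes. Only a small part of the genes was changed there, and no shift of all genes was added. In the real comparison 69.1% of genes passed, so these rates do not carry over to it. Titles number the arrays 1 to 3, but correlations of same-number deviations across genes ranged from -0.11 to 0.12, so the arrays were not treated as paired. Between E and DTE they were 0.085 to 0.12 for same-number arrays and -0.074 to -0.031 for the others. A weak pairing of these groups may therefore exist, for which the fit with a replicate block is the alternative. Figures used matplotlib 3.10.9 in Python 3.11.15.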

Additional observations from a re-analysis of the deposited data

Results flagged for a closer look

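On the deposited scale the effect of entinostat on 3 members differed with and without dabrafenib and trametinib, by the interaction term of the limma fit over 14599 genes. Over all genes 8% passed, 4.84% with a negative sign, and 12.5% passed after quantile normalization. The difference of effects (DTE minus DT, less E minus DMSO) was -0.79 ± 0.18 for MITF (adjusted p = 0.01), -0.72 ± 0.20 for PMEL (adjusted p = 0.03) and -0.93 ± 0.20 for GPNMB (adjusted p = 0.0079). After quantile normalization it was -0.80 for MITF (adjusted p = 0.0015), -0.57 for PMEL (adjusted p = 0.036) and -0.49 for GPNMB, which did not pass (adjusted p = 0.13). SOX10 passed there with a positive sign (0.37, adjusted p = 0.048) but not on the deposited scale (adjusted p = 0.36). The PMEL call on the deposited scale was lost when any of 8 of the 12 arrays was left out. All 3 DTE arrays lay below all 3 DT arrays for MITF and GPNMB and above them for PMEL on the deposited scale. Of all genes 44% lay wholly below and 9.99% wholly above in that way.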

How the results depend on the processing

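Scaling between arrays mattered most. Quantile normalization gave log2 differences from DMSO in DT of 0.61 for MITF, 0.41 for SOX10 and -0.11 for PMEL, in E of -0.31 for MLANA, and in DTE of 0.037 for SOX10, 0.54 for PMEL and -0.24 for MLANA. It gave DTE minus E of -0.19 for MITF and 0.77 for SOX10, and interactions of 0.37 for SOX10 and -0.49 for GPNMB. Subtracting array medians gave, in DT, 0.67 for MITF, 0.20 for SOX10, -0.054 for PMEL and 0.51 for MLANA, in E -0.16 for MLANA, and in DTE -0.17 for MITF, 0.55 for PMEL and 0.29 for MLANA. It gave DTE minus DT of -0.22 for MLANA, and DTE minus E of -0.073 for MITF, 0.53 for SOX10 and 0.45 for MLANA. Signs turned in 7 of 35 member results under quantile normalization. In 4 of them a value on either side passed (SOX10 in DT, in DTE and in DTE minus E, and PMEL in DTE), and in the other three none did (MLANA in DT, 0.19, and in DTE minus E, 0.076, and GPNMB in DTE minus DT, 0.14). Under median subtraction 6 turned, each with a passing value on either side. The cause was not tested.

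Of the other settings, the single change of sign was that of MLANA in DT without DT replicate 2 (0.081, not passing in either fit). MITF in E (-0.30) passed without the dimmest 40% of genes and in the fit with a replicate block, and also with a pseudocount of 16 (-0.24). GPNMB in DTE minus DT (-0.32) passed without the dimmest genes, with trend and robust variance, and with only the arrays compared, and with the pseudocount (-0.30). MLANA in DT minus E was lost with trend and robust variance (0.32) and with the pseudocount (0.17). PMEL in DTE minus DT (0.35) was lost with only the arrays compared and with the replicate block (adjusted p = 0.059). The block changed no other member call. The numbers were not taken as pairs: the median correlation of same-number arrays was 0.03, and for 7 of 12 arrays the closest array of other groups had the same number. Each member has 1 probe set, so the handling of several probe sets could not change its difference, and 0 of 35 member results changed. MLANA is among the dimmest 40% and had no value under that filter, and the interaction, which needs all groups, had none with only the arrays compared.

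Leaving out 1 array kept the call in 391 of 420 cases, ended it in 25, made it pass in 4 and turned 0 called signs. The ranges, where calls changed, were -0.44 to -0.28 for SOX10 in DT, -0.36 to -0.19 for MITF in E and -0.41 to -0.15 for PMEL in DTE. In DTE minus DT they were 0.19 to 0.46 for PMEL and -0.39 to -0.23 for GPNMB, in DT minus E 0.31 to 0.50 for MITF and 0.24 to 0.44 for MLANA, and -0.88 to -0.61 for the PMEL interaction. MITF in E passed without DTE replicate 2 (adjusted p = 0.045), and GPNMB in DTE minus DT without E replicate 2 (adjusted p = 0.043).

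Counts of all genes moved by over 1.5 times as follows. In DT 434 were higher, against 2205 after quantile normalization, 3876 after median subtraction and 259 without the dimmest genes, and 9660 were lower, against 2028 and 3296 under the 2 scalings. In E 1513 were higher, against 2696 and 3027, and 5424 lower, against 3082 with quantiles. In DTE 639 were higher, against 3225, 5519 and, without the dimmest, 339, and 10840 lower, against 3530 and 4813. DTE exceeded DT in 1267 genes, against 2898 and 2981, and was below in 5933, against 3430 and 3873. DTE exceeded E in 94, against 1664, 3262 and, without the dimmest, 50, and was below in 10602, against 1700 and 3211. DT exceeded E in 1058, against 3594 and 4242, and was below in 5755, against 2979 and 2994. Positive interactions numbered 462, against 907 and 854. With 3 arrays a group and no detection call, small differences of dim probe sets such as MLANA are the least secure.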
